A study of Homo sapiens with 10 samples.

Results

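The genes described here are 36 genes of glucose breakdown and of the response to low oxygen that were picked by gene name, a rule that uses no measured value. They comprise 17 glycolytic enzyme genes, 4 transporter genes, 7 genes of the pyruvate dehydrogenase kinase (PDK) and phosphofructokinase-2 (PFKFB) families, 7 targets of the hypoxia-inducible factor HIF, and HIF1A itself. The table holds 64940 genes after clean-up, of which 16687 had a mean of at least 1 TPM, a level per transcript length that is scaled to the same sum in every library, and were tested. Of the 36 genes, 35 were among those tested and CA9 was not. Of the 38 table entries with these names, 2 were second entries for GPI and SLC16A1 listed at 0 throughout, and these were set aside.

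The study asked how DAZL, a germ cell RNA-binding protein, acts in cells derived from the human embryonic stem cell line H9, and 2 control libraries were compared here with 2 libraries of cells overexpressing DAZL (oeDAZL). The control cells are wild type and are labelled as spontaneously differentiated, whereas the oeDAZL cells carry a lentiviral DAZL transgene and are labelled as hPGCLCs, that is human primordial germ cell-like cells. The series description and the study's own text, in contrast, call both groups PGCLCs, and this conflict could not be settled. The methods describe BMP4 and BMP8a treatment for such cells, and a control GFP virus for related assays, but not whether the sequenced control cells received either. DAZL, any difference in culture, and virus therefore cannot be told apart as sources of a difference. Both groups come from 1 cell line, and nothing in the sources used here says that replicates are separate cultures, so the P-values measure the spread between these libraries, which may be technical.

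Glycolysis converts glucose to pyruvate in the cytosol, and lactate dehydrogenase reduces pyruvate to lactate when it is not sent to the mitochondria. When oxygen is low, HIF-1α escapes degradation and raises the transcription of most glycolytic genes, of the glucose and lactate transporters, and of genes such as VEGFA, ADM and CA9. Pluripotent stem cells are known for a high glycolytic rate, which changes as they differentiate.

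HIF binds the core sequence ACGTG, so the promoters of 4 of these genes are shown for where that core lies. The sequences are from RefSeq on GRCh38.p14, on the forward strand, and end at or before the annotated start of the transcript. Capitals mark ACGTG on either strand, so that CACGT is the core read from the other strand and CACGTG is both at once. LDHA encodes the lactate dehydrogenase subunit of most glycolytic cells (chr11:18394313-18394559), PFKFB3 makes the activator of phosphofructokinase (chr10:6202682-6202865), SLC16A3 encodes the lactate exporter MCT4 (chr17:82228792-82229041), and PGK1 encodes phosphoglycerate kinase (chrX:78103998-78104247).
LDHA: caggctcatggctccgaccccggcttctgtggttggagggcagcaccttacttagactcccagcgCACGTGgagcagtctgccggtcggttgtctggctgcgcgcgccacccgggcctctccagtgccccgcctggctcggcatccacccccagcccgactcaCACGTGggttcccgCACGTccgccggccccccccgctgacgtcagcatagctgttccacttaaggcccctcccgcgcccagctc
PFKFB3: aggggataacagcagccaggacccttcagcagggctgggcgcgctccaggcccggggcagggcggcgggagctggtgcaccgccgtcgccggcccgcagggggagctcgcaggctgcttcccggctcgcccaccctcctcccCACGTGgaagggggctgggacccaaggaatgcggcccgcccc
SLC16A3: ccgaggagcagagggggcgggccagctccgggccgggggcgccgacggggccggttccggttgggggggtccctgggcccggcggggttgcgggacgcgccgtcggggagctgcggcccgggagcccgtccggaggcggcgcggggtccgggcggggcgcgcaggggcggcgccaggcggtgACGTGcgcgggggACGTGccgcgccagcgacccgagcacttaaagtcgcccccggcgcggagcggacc
PGK1: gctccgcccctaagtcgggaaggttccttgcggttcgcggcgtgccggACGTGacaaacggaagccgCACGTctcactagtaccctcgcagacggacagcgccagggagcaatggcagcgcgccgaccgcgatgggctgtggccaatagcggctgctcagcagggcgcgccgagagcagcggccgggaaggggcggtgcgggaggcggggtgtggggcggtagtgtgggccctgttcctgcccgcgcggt
The LDHA stretch holds 3 sites, 2 of them the palindrome CACGTG, while PFKFB3 has 1 palindrome and SLC16A3 and PGK1 have 2 sites each. For LDHA, PFKFB3 and SLC16A3 the window with the core was the one shown, and their other windows held none. HK1, ENO1 and HIF1A, named below as higher in oeDAZL, had no core in any window. RefSeq promoter windows, from 250 bases before to 50 after the start, were matched by symbol for 31 of the 36 genes (not NDRG1, SLC16A1, VEGFA, PFKFB2 and SLC2A3), and 18 of those 31 (58.1%) held ACGTG in at least 1 window. Over all 27305 genes with a window the share was 24.9%, and over the 10816 tested genes it was 31.9%. Of the matched genes, the core was found for 3 of 6 that were higher in oeDAZL, 1 of 2 that were lower and 13 of 22 that did not pass the test described below. A match of 5 letters is a description of the sequence and not a binding site.

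A principal component analysis put 55.5% of the variance on its first axis. Control replicates 1 and 2 scored -30.1 and -7.97 there, against 22.4 and 15.7 for the oeDAZL replicates, so control replicate 1 stood furthest out. DAZL itself was at 0 and 0.0333 TPM in control and at 102 and 101 TPM in oeDAZL. Of 8 primordial germ cell markers, SOX17 (2.52 to 3.35 TPM), PRDM1 (1.47 to 2.32 TPM), NANOS3 (0.732 to 1.66 TPM) and DPPA3 (0.716 to 2.17 TPM) were low in both groups and DDX4 was not above 0. KIT was between 6.23 and 7.70 TPM, TFAP2C between 44.3 and 53.9 TPM and PDPN between 32.9 and 58.5 TPM, and PDPN alone passed an unadjusted P of 0.05, higher in oeDAZL with a log2 fold change of 0.44 (standard error 0.18). Some genes of other cell types were abundant, with GABRP of the amnion between 1208 and 1408 TPM and the mesoderm factor HAND1 between 958 and 1250 TPM. Others of the same lists were low, with CGA between 4.34 and 15.5 TPM and TBXT between 0.319 and 2.49 TPM. HAVCR1 and MESP1 were under 1 TPM in every library. At an unadjusted P of at most 0.05, a threshold that 5.02% of all tested genes passed upwards and 15.2% downwards, 3 of 7 tested amnion and trophoblast markers were lower (CGA, ISL1 and VTCN1, with log2 fold changes of -1.18, -0.49 and -0.38) and none was higher. Of 8 tested mesoderm and mesenchyme markers 3 were lower and 1 was higher, and of 5 tested neural markers 2 were lower and 1 was higher. Of 6 endoderm markers 1 was lower, of 3 endothelial and blood markers 1 was lower, and of 4 pluripotency markers 1 was higher. The summed level of the amnion and trophoblast markers was 2630 and 2398 TPM in control and 2396 and 2446 TPM in oeDAZL, and that of the mesoderm and mesenchyme markers was 3491 and 3659 TPM in control and 3494 and 3451 TPM in oeDAZL. For the neural markers it was 451 and 588 TPM against 697 and 643 TPM. Most of that sum came from NES and TUBB3, with log2 fold changes of 0.52 and 0.22. The other tested neural markers, PAX6, ZIC1 and MAP2, had log2 fold changes of -1.30, -0.93 and -0.41. POU5F1 (OCT4) was at 13.6 and 10.6 TPM in control and at 22.4 and 20.4 TPM in oeDAZL. The other 3 tested pluripotency markers lay below 0 without passing, with log2 fold changes of -0.14 for LIN28A, -0.11 for DPPA4 and -0.60 for SOX2. The summed level of the pluripotency markers was 541 and 487 TPM in control and 483 and 466 TPM in oeDAZL. COL3A1, a fibroblast collagen, was lower in oeDAZL with a limma adjusted p of 0.0344 and a log2 fold change of -1.25. The part of these markers in the values below was not tested, and in bulk RNA fewer cells of a type cannot be told from less RNA per cell.

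Glycolytic transcripts were abundant in both groups. The 36 genes together took 1.48% and 1.55% of all TPM in control and 1.60% and 1.62% in oeDAZL. SLC2A3, the high-affinity neuronal-type glucose transporter GLUT3, ranked 24 by mean TPM among all genes. ENO1 (enolase) ranked 40, PKM (pyruvate kinase) 63, ALDOA (aldolase) 70 and LDHA 84. At the other end, PDK4 was between 1.04 and 1.63 TPM, and CA9, the tumour-associated carbonic anhydrase that is a sensitive mark of hypoxia, was at 0.384 and 0.464 TPM in control and at 0.316 and 0.267 TPM in oeDAZL. CA9 thus stayed under 1 TPM in every library and was not tested.

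**Figure D1:**
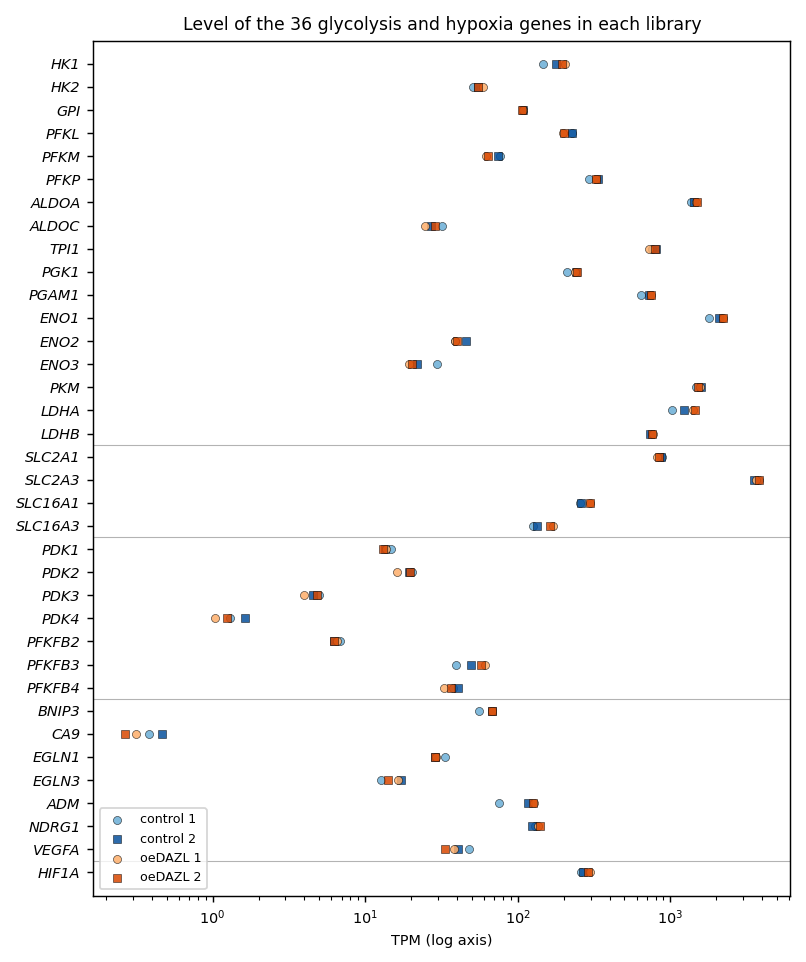
TPM of each of the 36 genes (horizontal, log axis) in the 2 control libraries (light and dark blue) and the 2 oeDAZL libraries (light and dark orange), in blocks for enzymes, transporters, PDK and PFKFB genes, HIF targets and HIF1A. The genes span from under 1 TPM for CA9 to 3788 TPM for SLC2A3, and the 4 points of a gene lie close together compared with the distance between genes.

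In the limma fit, made on log2(TPM + 1), none of the 35 tested genes reached a 2-fold change. The background for that rule, a fold change of at least 2 with an unadjusted P of at most 0.05, was 0.126% of tested genes higher and 0.563% lower in oeDAZL. At an unadjusted P of at most 0.05 whatever the fold, 7 of 35 genes were higher and 3 (8.57%) were lower, against a background of 5.02% higher and 15.2% lower. The 7 were HK1, ENO1, LDHA, SLC16A1, SLC16A3, PFKFB3 and HIF1A, and the 3 were PFKL, PFKM and VEGFA. None had a Benjamini-Hochberg adjusted p under 0.05 in limma over all 16687 genes, where 0.0599% of genes did, and the lowest adjusted p was 0.0896 for SLC16A3. The background differed with abundance. In a fit of only the 1611 genes with a mean of at least 100 TPM, a limit chosen after the values were seen, 13.2% were higher and 12.8% lower at that P, and of the 19 members in it 6 (31.6%) were higher and 1 (5.26%) was lower. Of those 19, 10 did not overlap with oeDAZL higher and 2 with oeDAZL lower, against 30.5% and 29.2% of the 1611 genes. None of the 19 passed the 2-fold rule, which 0% of the 1611 passed upwards and 0.0621% downwards.

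The median log2 fold change was 0.03 over the 35 genes and -0.08 over all tested genes. Both depended on scaling. Median-of-ratios scaling moved the median of all genes to 0.01, moved that of the members to 0.13, and gave 12 members higher (34.3%) and 1 lower (2.86%) against 11.2% and 8.2% of all genes. Quantile normalization gave 6 higher and 3 lower against 8.4% and 9.07%. The groups did not overlap for 18 of the 35 genes, with oeDAZL above control in 11 (31.4%) and below it in 7, whereas over all tested genes 16% lay above and 38.4% below.

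**Figure D2:**
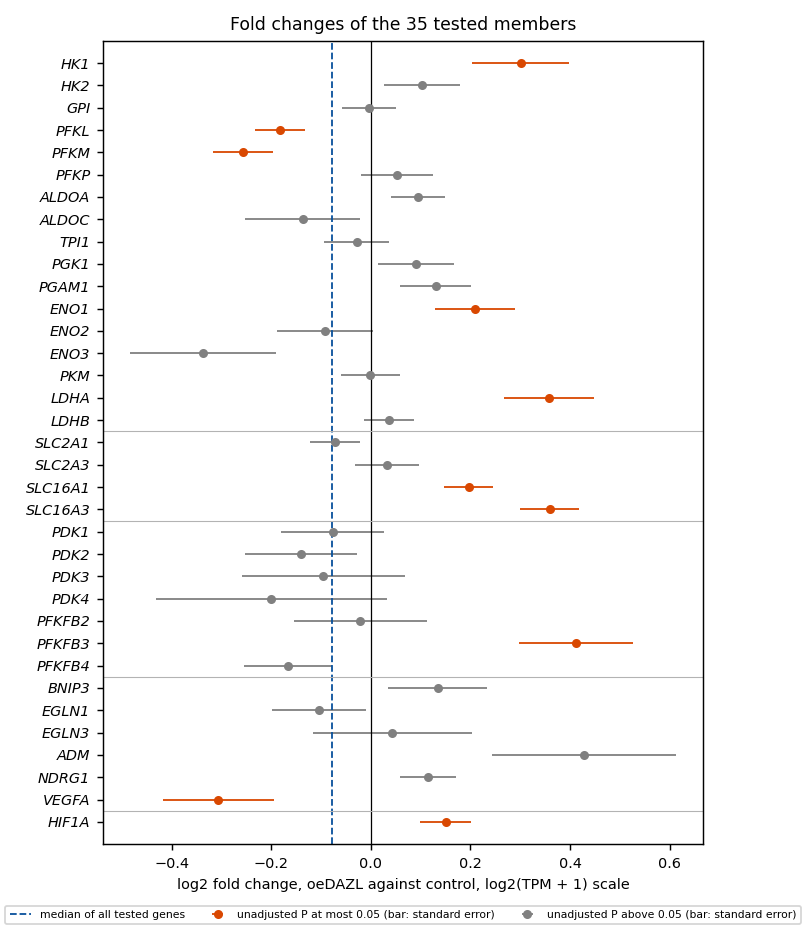
Log2 fold change of oeDAZL against control for the 35 tested genes (points, horizontal) with standard errors (bars) from limma. Orange-red marks the 10 genes with an unadjusted P of at most 0.05, and the dashed line marks the median of all tested genes at -0.08. All points lie between -0.34 and 0.43, short of a 2-fold change.

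Among the 17 enzymes, 3 were higher, 2 were lower and 12 did not pass an unadjusted P of 0.05. Their median log2 fold change was 0.04. HK1, the constitutive hexokinase that phosphorylates glucose (chromosome 10, 69269984 to 69401884 of hg38), was at 146 and 178 TPM in control and at 204 and 194 TPM in oeDAZL. Both oeDAZL values were above both control values, with control replicate 1 the lowest, and the log2 fold change was 0.30 (standard error 0.10, limma adjusted p = 0.180). It was 0.16 without control replicate 1, and the gene did not pass without oeDAZL replicate 1. HK2, the inducible hexokinase and a well-known HIF target, was at 50.7 and 54.9 TPM in control and at 58.8 and 54.7 TPM in oeDAZL. Its groups overlapped, and its log2 fold change of 0.10 (standard error 0.08) did not pass.

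GPI, the isomerase of the next step, was nearly level across the libraries. It was at 108 and 108 TPM in control and 108 and 107 TPM in oeDAZL, with a log2 fold change of -0.0040 (standard error 0.05).

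Phosphofructokinase, the committed step, has 3 genes, for the liver-type (PFKL), muscle-type (PFKM) and platelet-type (PFKP) subunits. PFKL (chromosome 21, 44300051 to 44327376) fell from 225 and 226 TPM in control to 196 and 201 TPM in oeDAZL. Its log2 fold change was -0.18 (standard error 0.05, limma adjusted p = 0.148). PFKM (chromosome 12, 48105139 to 48146404) fell from 76.4 and 74.5 TPM to 62.2 and 63.8 TPM, with a log2 fold change of -0.26 (standard error 0.06, limma adjusted p = 0.117). For both genes the replicates of a group differed by far less than the groups did. With median-of-ratios scaling, however, PFKL was at -0.08 and did not pass, and PFKM was at -0.16 and passed. PFKP, the most abundant of the 3, was at 293 and 334 TPM in control and at 324 and 324 TPM in oeDAZL. Its groups overlapped, and its log2 fold change was 0.05 (standard error 0.07).

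Further down the pathway, the aldolase, triose phosphate isomerase, phosphoglycerate kinase and mutase genes did not pass the test. ALDOA was at 1357 and 1429 TPM in control and at 1479 and 1494 TPM in oeDAZL. Its log2 fold change was 0.09 (standard error 0.05), and that of PGAM1, the mutase, was 0.13 (standard error 0.07). In both genes the 2 groups did not overlap. ALDOC, the brain-type aldolase, was between 24.5 and 31.7 TPM, with overlapping groups and a log2 fold change of -0.14 (standard error 0.12). TPI1 and PGK1 had log2 fold changes of -0.03 (standard error 0.07) and 0.09 (standard error 0.08), with overlapping groups.

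ENO1, the ubiquitous enolase (chromosome 1, 8861000 to 8879190), was at 1779 and 2068 TPM in control and at 2213 and 2221 TPM in oeDAZL. The 2 control libraries were further apart than control replicate 2 was from oeDAZL. Its log2 fold change was 0.21 (standard error 0.08, limma adjusted p = 0.225), and without control replicate 1 it was 0.10 and without control replicate 2 it was 0.32. ENO1 did not pass without either oeDAZL replicate (0.21 in both fits) or with quantile normalization (0.17). The tissue-restricted enolases did not pass: ENO2, the neuronal form, gave a log2 fold change of -0.09 (standard error 0.10) and ENO3, the muscle form, gave -0.34 (standard error 0.15). PKM was at 1481 and 1597 TPM in control and at 1553 and 1521 TPM in oeDAZL, a log2 fold change of -0.0011 (standard error 0.06). A table of gene totals does not separate its M1 and M2 splice forms.

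LDHA, on chromosome 11 from 18394560 to 18408425, had the largest rise among the enzymes. It was at 1021 and 1224 TPM in control and at 1411 and 1455 TPM in oeDAZL, a rise of the mean by 27.7%. The log2 fold change was 0.36 (standard error 0.09, limma adjusted p = 0.128). The change was 0.23 without control replicate 1 and 0.49 without control replicate 2. The latter fit has control replicate 1, the library with the lowest LDHA level, as its lone control. LDHB, the subunit that favours the reverse reaction, was at 756 and 734 TPM in control and at 774 and 755 TPM in oeDAZL. Its log2 fold change of 0.04 (standard error 0.05) did not pass.

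Of the 4 transporters, 2 were higher and 2 did not pass, with a median log2 fold change of 0.11. The 2 higher ones carry lactate and pyruvate. SLC16A3, encoding MCT4 (chromosome 17, 82217934 to 82261129), was at 125 and 133 TPM in control and at 169 and 163 TPM in oeDAZL. The groups were well apart, with a log2 fold change of 0.36 (standard error 0.06, limma adjusted p = 0.0896), the lowest P of the 35 genes. SLC16A1, encoding MCT1 (chromosome 1, 112911847 to 112957593), was at 256 and 260 TPM in control and at 295 and 297 TPM in oeDAZL, with a log2 fold change of 0.20 (standard error 0.05, limma adjusted p = 0.128). The glucose transporters did not pass. SLC2A1, encoding GLUT1, was at 886 and 865 TPM in control and at 820 and 845 TPM in oeDAZL, a log2 fold change of -0.07 (standard error 0.05) that turned to 0.03 with median-of-ratios scaling. SLC2A3 was at 3781 and 3503 TPM in control and at 3653 and 3788 TPM in oeDAZL, with overlapping groups and a log2 fold change of 0.03 (standard error 0.06). Its near-identical paralog SLC2A14 was listed at between 230 and 270 TPM, at most 7.7% of the SLC2A3 level, and how reads were divided between the pair is uncertain.

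The regulators of flux mostly did not pass. Of 7 genes, PFKFB3 was higher and the other 6 had values below 0 that did not reach the threshold. PFKFB3, which makes the sugar bisphosphate that activates phosphofructokinase (chromosome 10, 6144934 to 6254644), was at 39.2 and 49.4 TPM in control and at 60.7 and 57.2 TPM in oeDAZL. Its log2 fold change was 0.41 (standard error 0.11, limma adjusted p = 0.149). Without control replicate 1 it was 0.25, below the 0.32 of SLC16A3 in the same fit. PFKFB4, a second enzyme of the same family, was at 37.7 and 40.4 TPM in control and at 32.7 and 36.7 TPM in oeDAZL, with a log2 fold change of -0.17 (standard error 0.09). The log2 fold change of PFKFB2 was -0.02 (standard error 0.13). The kinases that shut pyruvate out of the mitochondria had log2 fold changes of -0.08 for PDK1, -0.14 for PDK2, -0.10 for PDK3 and -0.20 for PDK4, with standard errors of 0.10, 0.11, 0.16 and 0.23. PDK1, a HIF target, was at 14.9 and 13.6 TPM in control and at 13.7 and 13.1 TPM in oeDAZL.

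HIF1A, the oxygen-labile subunit of HIF (chromosome 14, 61695513 to 61748259), was at 261 and 267 TPM in control and at 298 and 289 TPM in oeDAZL. The groups did not overlap, and the log2 fold change was 0.15 (standard error 0.05, limma adjusted p = 0.195). HIF activity is set mainly by protein stability, which these data do not measure. Of its 6 tested targets outside glucose metabolism, 1 was lower and 5 did not pass. VEGFA, an angiogenic growth factor (chromosome 6, 43770184 to 43786487), was the lower one. It was at 48.1 and 40.9 TPM in control and at 38.4 and 33.1 TPM in oeDAZL, with a log2 fold change of -0.31 (standard error 0.11, limma adjusted p = 0.209), and it no longer passed when either control replicate 1 (-0.19) or oeDAZL replicate 2 (-0.20) was left out, or with median-of-ratios scaling (-0.21) or quantile normalization (-0.25).

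ADM, encoding the vasodilator peptide adrenomedullin, had the largest positive value of all 35 genes without passing. It was at 75.4 and 116 TPM in control and at 127 and 125 TPM in oeDAZL. Control replicate 1 stood below the other 3 libraries. The log2 fold change was 0.43 (standard error 0.18, limma adjusted p = 0.264) with all libraries, 0.12 without control replicate 1 and 0.74 without control replicate 2. NDRG1 was at 129 and 125 TPM in control and at 135 and 141 TPM in oeDAZL, a log2 fold change of 0.11 (standard error 0.06). BNIP3, a mitophagy receptor, was at 55.9 TPM in control replicate 1 and between 67.7 and 67.9 TPM in the other 3 libraries, with a log2 fold change of 0.13 (standard error 0.10). The prolyl hydroxylases that mark HIF-1α for degradation had log2 fold changes of -0.10 for EGLN1 (standard error 0.09) and 0.04 for EGLN3 (standard error 0.16).

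Changes of the enzymes were then set beside those of the HIF targets. The median log2 fold change was 0.04 for the 17 enzymes and 0.08 for the 6 tested targets, a difference of 0.04. In the fit without a TPM filter, which takes in CA9, the difference was 0.006. A related quantity was taken per library, with each gene's log2(TPM + 1) centred on its mean. It was the median of the targets, CA9 included, minus that of the enzymes, and its SD between replicates of a group was 0.0469. Without control replicate 1 the median log2 fold changes were close to 0, at -0.0083 for the enzymes and -0.0031 for the targets. Without control replicate 2 their difference was 0.12. The mean log2(TPM + 1) of the enzymes was 7.95 and 8.02 in control and 7.99 and 8.02 in oeDAZL. For the 7 HIF targets, CA9 included, it was 4.87 and 4.996 in control and 4.99 and 4.92 in oeDAZL. Neither group mean separated the conditions. With 2 libraries a group, an exact permutation test cannot give a p under 0.333, so none was run.

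Within a family, the share of each gene does not change when a whole library is multiplied by 1 factor, as in median-of-ratios scaling. Quantile normalization can change it. LDHA made up 57.5% and 62.5% of LDHA plus LDHB in control and 64.6% and 65.8% in oeDAZL. PFKFB3 made up 46.9% and 51.4% of the 3 PFKFB genes in control and 60.7% and 57.1% in oeDAZL, and PFKFB4 made up 45.0% and 42.1% in control and 32.7% and 36.6% in oeDAZL. In control PFKFB3 and PFKFB4 were thus near parity, at a ratio of 1.04 and 1.22, and in oeDAZL the ratio was 1.86 and 1.56. PFKP made up 49.3% and 52.7% of phosphofructokinase TPM in control and 55.6% and 55.1% in oeDAZL, while the 3 genes summed to 614 ± 28.2 TPM (SD, n = 2) in control and 586 ± 3.93 TPM (SD, n = 2) in oeDAZL. SLC16A3 took 32.9% and 33.9% of the 2 lactate transporter genes in control and 36.4% and 35.5% in oeDAZL. HK1 took 74.3% and 76.4% of the hexokinase TPM in control and 77.7% and 78.0% in oeDAZL. SLC2A3 took 81.0% and 80.2% of the glucose transporter TPM in control and 81.7% and 81.8% in oeDAZL. ENO1 took 96.3% and 96.8% of enolase TPM in control and 97.4% and 97.4% in oeDAZL. For these genes the groups did not overlap, though for SLC2A3 and ENO1 they were about 1 percentage point apart. The groups did overlap for the shares of PFKFB2, of both aldolases, with ALDOA between 97.7% and 98.4%, and of all 4 PDK genes, of which PDK2 was the largest at 46.5% to 50.4%. No test of these shares was run, and no background was drawn for them. In TPM, 16% of all tested genes lay above control without overlap and 38.4% below it. In a family of 2 genes, the 2 shares always move in opposite directions.

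**Figure D3:**
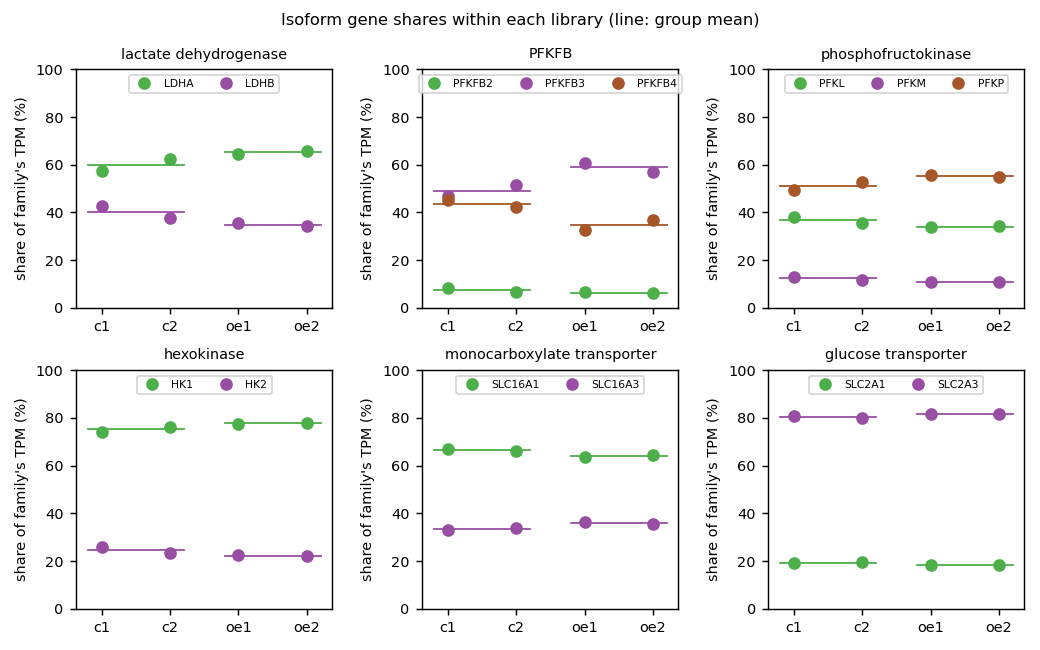
Percent of the family's summed TPM that each gene took (vertical) in control libraries c1 and c2 and oeDAZL libraries oe1 and oe2, for 6 families, with horizontal lines at the group means and 1 colour per gene. PFKFB3 moves away from PFKFB4 and LDHA from LDHB in oeDAZL, while SLC2A3 lies between 80.2% and 81.8% in all 4 libraries.

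Other genes of the same pathways were taken from lists set out by role. Of 22 tested genes of glycolysis and pyruvate use, 4 were higher (BSG, DLAT, MPC2 and TIGAR), 3 were lower (ADPGK, SLC16A8 and SLC2A8) and 15 did not pass, with a median log2 fold change of 0.0040. Of 39 tested hypoxia genes, 7 were higher (AK4, BHLHE40, CITED2, HMOX1, P4HA1, PLOD2 and TFRC), 5 were lower (ANGPTL4, HIF1AN, KDM4B, PLOD1 and STC2) and 27 did not pass, with a median of -0.0040. Over all tested genes 5.02% were higher and 15.2% lower. SLC16A8, a lactate transporter of the retinal pigment epithelium, was the only one of these genes with a change of at least 1.5-fold and an unadjusted P of at most 0.05. It fell from 9.39 and 9.53 TPM to 3.83 and 5.10 TPM, a log2 fold change of -0.95 (standard error 0.16, limma adjusted p = 0.0896). The values that follow were chosen for print after they were seen. SLC2A8, encoding the glucose transporter GLUT8, had the lowest P of both lists and fell from 80.4 and 76.0 TPM to 56.9 and 52.2 TPM, a log2 fold change of -0.51 (standard error 0.07, limma adjusted p = 0.0896). PLOD2, a HIF-induced enzyme of collagen hydroxylation, was at 102 and 119 TPM in control and at 150 and 149 TPM in oeDAZL, a log2 fold change of 0.43 (standard error 0.08, limma adjusted p = 0.0949). PLOD1, of the same family, was lower, at -0.21 (standard error 0.06). BSG, the chaperone that carries MCT1 and MCT4 to the membrane, was at 808 and 693 TPM in control and at 869 and 853 TPM in oeDAZL, with a log2 fold change of 0.20 (standard error 0.08, limma adjusted p = 0.235).

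The libraries bore unequally on these results. Which library was lowest or highest was not counted over all genes. Control replicate 1 was the lowest of the 4 libraries for 17 of the 36 genes and the highest for 10. With it left out, the same 7 genes were higher, against 4.67% of all genes, and 3 were lower, 2 of them shared, against 10.3%. Without oeDAZL replicate 1 the median log2 fold change was 0.0195 over the members and -0.0734 over all tested genes. Without oeDAZL replicate 2 these medians were 0.0137 and -0.0808, and without control replicate 2 they were 0.028 and -0.0991. LDHA and SLC16A3 had an unadjusted P of at most 0.05 with each library left out and under every alternative tried, and so did PFKFB3 wherever it was tested. None of the 10 genes that passed changed direction under the alternatives tried. The fold changes of LDHA, PFKFB3, HK1, ENO1 and ADM were smallest without control replicate 1, while SLC16A1 stayed between 0.18 and 0.21 with any 1 library left out. When either oeDAZL replicate was left out, ENO1, SLC16A1, HIF1A and PFKL did not pass. HK1 and PFKM did not pass without oeDAZL replicate 1, nor VEGFA without oeDAZL replicate 2.

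**Figure D4:**
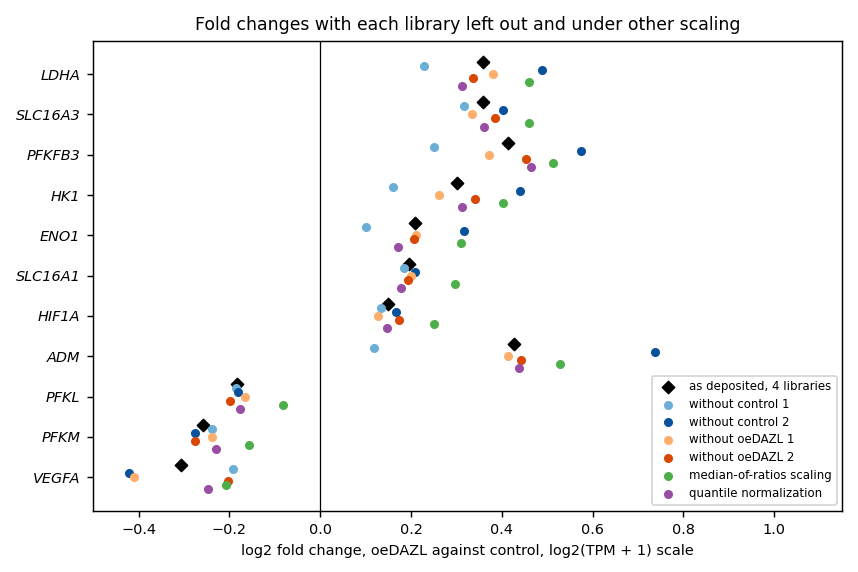
Log2 fold change (horizontal) of the 10 genes that passed and of ADM, with all 4 libraries (black diamonds), with each library left out, and under 2 other scalings. Leaving out control replicate 1 (light blue) shrinks ADM from 0.43 to 0.12 and LDHA from 0.36 to 0.23, and median-of-ratios scaling (green) shifts every gene to the right.

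Many glycolytic genes have processed pseudogenes that can draw reads from them. Among 15 of the 36 genes, 90 copies were found by name, of which 37 were above 0 TPM. Their summed level was at most 3.11% of the parent gene for the TPI1 copies and at most 13.4% for the BNIP3 copies. For LDHA it was at most 0.190%, and for ENO1 at most 0.0230%. Only uniquely mapped reads were kept by the authors, so reads that match a gene and its copy equally well were not counted for either.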

How the data were processed

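RNA-seq of 2 control and 2 oeDAZL samples of H9-derived cells was used. Values are TPM deposited by the authors, 1 column per library, which by their methods and the submitters' processing notes were made with Trim Galore, HISAT2 (2.1.0) on hg38 and StringTie (2.1.4) from uniquely mapped reads. The annotation release is not given in the sources used here. TPM keeps no read depth, so no counting error could be given, and precision rests on the 2 libraries per group. miRNA libraries were not analysed here. Entries for chromosome Y copies (45) and repeated identifiers (18) were left out.

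The fit took genes averaging at least 1 TPM, on log2(TPM + 1) with limma 3.58.1 (R 4.3.3, eBayes with trend, no covariates). This scale understates changes of low genes. The call thresholds, a fold change of 2 and an unadjusted P of 0.05, are those of the study, whose own test ran on read counts not used here. The rule for named genes took all 36 genes and, from 2 lists of other pathway genes, those with P of at most 0.05 and a 1.5-fold change. Other genes of those lists were named after their values were seen. The genes, lists and tests were chosen with earlier results of these data known. The fit was also run on simulated data with 2-fold changes and the same spread for every gene. That run says nothing about changes as small as those of the members. Coordinates are from GENCODE 44 on hg38. Alternatives were another pseudocount, other filters, 3 other scalings, a replicate block (as numbered and crossed), no trend, and each library left out.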

Additional observations from a re-analysis of the deposited data

How the results depend on the processing

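At an unadjusted P of at most 0.05, 7 members were higher and 3 lower, against 5.02% and 15.2% of all genes. These counts were 12 and 1 with median-of-ratios scaling, against 11.2% and 8.2%. They were 3 and 1 with limma without its trend, against 3.39% and 13.9%. With the mean TPM of at least 100, chosen after the values were seen, 19 members were left. Of these, 6 were higher and 1 was lower, against 13.2% and 12.8% of the genes in that fit. Leaving out 1 library moved the higher count between 3 and 13, the lower count between 1 and 5, and the count with a limma adjusted p under 0.05 between 0 and 6. The share of all genes at an unadjusted P of at most 0.05 moved as well, in both directions. Like the counts of members, it was highest without control replicate 2. These counts alone therefore do not set the members apart from other genes. The share of all genes with a limma adjusted p under 0.05 in these fits is not given here. With the replicate block the member counts stayed at 7 and 3, with 6 and 3 genes shared, against 4.015% and 12.6% of all genes. The lowest limma adjusted p of a member was then 0.160. The labels tie replicates across groups by number alone, and the replicate differences of the 2 groups correlated at -0.104 across genes. Crossing the replicate numbers between groups in the block was another setting added once the data had been seen. It left 8 higher and 4 lower, against 6.35% and 17.7% of all genes. In that fit 4 members had a limma adjusted p under 0.05, and the share of all genes that did is not given here. Median log2 fold changes under median-of-ratios scaling were 0.14 for enzymes, 0.22 for transporters, 0.18 for HIF targets and 0.13 for all members. Under quantile normalization they were 0.057 for transporters and 0.024 for the PDK and PFKFB genes, and HIF targets exceeded enzymes by 0.12. With the mean TPM of at least 100 they were 0.27 for HIF targets, only 2 of which remained, and 0.094 for all members, with a difference of 0.20. Over the libraries left out, the medians ranged as follows. Enzymes ran from -0.0083 to 0.053, HIF targets from -0.0031 to 0.17, all members from -0.0049 to 0.028, the PDK and PFKFB genes from -0.20 to -0.04, transporters from 0.09 to 0.14, and the difference from 0.0028 to 0.12. The cause of these shifts was not tested. With 1 library left out, the lone library of a group is assumed to vary like the others. Since TPM keeps no depth, the precision of low genes such as CA9 and PDK4 is unknown.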
